A study of Mus with 8 samples.

Results

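The genes described here encode the DNA replication machinery and the E2F transcription factors that drive its expression. They were taken by symbol from a fixed list of 50 genes that covers the E2F family, cyclin E, origin licensing, origin firing, the replication fork, nucleotide synthesis and chromatin assembly behind the fork. All 50 had a row among the 23185 named genes of the deposited table. RNA of mouse livers was measured on expression arrays; all the livers were in regrowth, 48 h after surgical removal of a part of the organ (partial hepatectomy). One group of 4 arrays was labelled Ctrl and the other group of 4 was labelled LKB1 KO, and the comparison asks how livers without LKB1 differ from livers with it at that time. LKB1 is the protein kinase encoded by Stk11. The strain, sex and age of the mice, the Stk11 allele and the cells in which it was lost are not stated in the labels, nor is it said that each array came from a separate animal.

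Before a cell copies its DNA, the origin recognition complex, CDC6 and CDT1 load the ring of MCM2 to MCM7 onto origins, and the CDC7 kinase with CDC45 and the GINS complex then turn that ring into an active helicase. DNA polymerases, their clamp and its loader follow the helicase, while ribonucleotide reductase and thymidylate synthase supply the deoxynucleotides. E2F factors control most of these genes: when cyclin-dependent kinases inactivate the RB proteins, activator E2Fs switch them on, and the atypical members E2F7 and E2F8 switch them off again later in S phase. Hepatocytes of the adult liver are mostly quiescent, and after partial hepatectomy they enter S phase and divide.

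No member of the set passed the threshold between the groups, and most members were spread widely among the Ctrl arrays alone, over a median range of 1.36 log2 units. With limma fitted to all genes, 0 of 50 members had an adjusted p under 0.05, where 1.98% of all genes did; the smallest member value was 0.136, for Tyms. At an unadjusted p under 0.05, 8 members (16.0%) stood apart beside 13.4% of all genes. Of these members 6 were higher in LKB1 KO, where 5.8% of all genes were, and 2 lower. All but 2 members had a mean above the background gauge, against 11947 of the 23185 genes. The gauge is the level under which 95% of olfactory and vomeronasal receptor genes lay. Of the 11947 genes above it, 449 passed the threshold. An unadjusted p under 0.05 was found for 21.1% of them, 987 higher and 1536 lower. Beside genes above the gauge, the 16.0% of members was thus the smaller share. LKB1 KO had the higher mean in 32 members and the lower in 18; the median of the 50 differences was 0.14 log2 units, beside 0.02 over all genes. In 23 members (46.0%) all 4 LKB1 KO values lay within the range of the Ctrl arrays, which was the case for 16.6% of all genes.

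**Figure D1:**
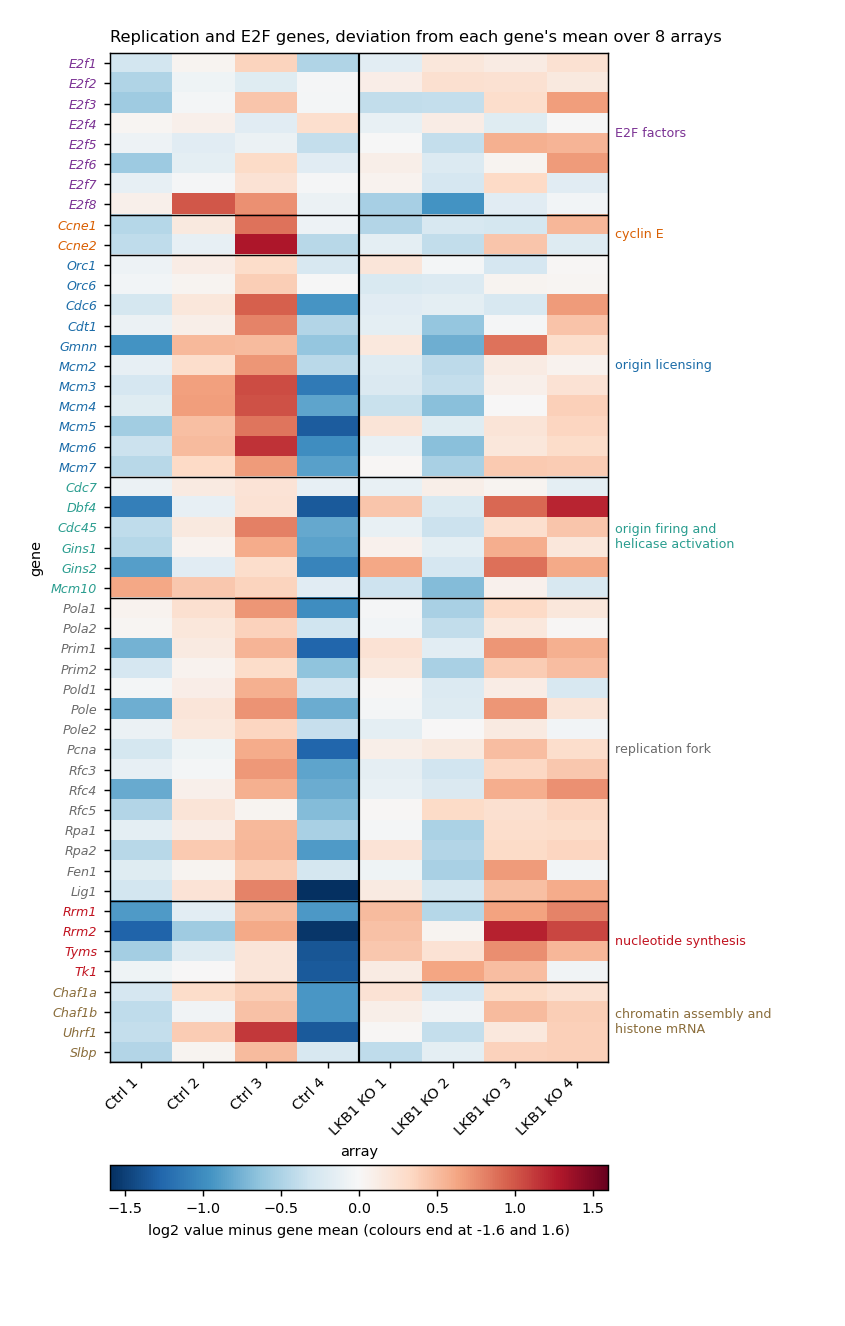
Each row is 1 member and each column 1 array; the colour is the log2 value minus the mean of that gene over the 8 arrays, with blue below and red above it. Ctrl 3 is the highest array in 29 rows and Ctrl 4 the lowest in 32, while the LKB1 KO arrays mostly lie between them.

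The spread among control livers had the same direction in most members. Ctrl 3 was the highest of the 8 arrays in 29 members (58.0%, against 9.13% of all genes) and Ctrl 4 the lowest in 32 (64.0%, against 12.6%). Around the mean of each gene, the median of the members was -0.29, 0.11, 0.52 and -0.74 log2 units in Ctrl 1 to 4 and -0.01, -0.27, 0.29 and 0.32 in LKB1 KO 1 to 4. Ctrl 3 thus stood above and Ctrl 4 below every LKB1 KO array, and the groups overlapped over the whole LKB1 KO range. The SD over the 4 arrays was larger in Ctrl than in LKB1 KO for 44 members (88.0%, against 47.3% of all genes), with a median SD of 0.62 in Ctrl and 0.36 in LKB1 KO, beside 0.21 and 0.22 over all genes. A list of 38 mitosis genes was also spread widely among Ctrl arrays: the SD was larger in Ctrl for 73.7% of them, with a median SD of 0.70 in Ctrl and 0.55 in LKB1 KO and a median Ctrl range of 1.46. Among the Ctrl arrays alone, Ctrl 3 was the highest in 73.7% of the mitosis genes and in 86.0% of the members, and Ctrl 4 the lowest in 76.3% and 80.0%. The mean of the neutrophil markers was highest in Ctrl 4, at 5.38 log2 units against at most 4.70 on any other array. S100a8, S100a9 and Retnlg peaked there, while Ly6g was highest in Ctrl 1, Cxcr2 in Ctrl 3 and Ngp in LKB1 KO 4. On average, cholangiocyte markers (4.64, against at most 4.30) and stellate cell markers (6.29, against at most 6.05) were highest in Ctrl 4 as well. Krt19, Epcam and Sox9 peaked there, but Krt7 did not. Of the stellate markers, Des (6.60, against at most 4.94 elsewhere), Dcn and Ecm1 peaked in Ctrl 4. Lrat, Reln, Colec11 and Hand2 did not, and Colec11 was lower there (5.47) than in the other Ctrl arrays. The sinusoidal endothelial mean was highest there by a small margin (7.13, against 7.10 in Ctrl 1). Lyve1 (7.12, against at most 6.44 elsewhere) and Gpr182 peaked in Ctrl 4. Stab2, Clec4g, Kdr and Oit3 peaked in Ctrl 1 and Pecam1 in Ctrl 3. Macrophage markers stood highest in Ctrl 1 (7.38). The part of all these markers in the replication values was not tested.

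**Figure D2:**
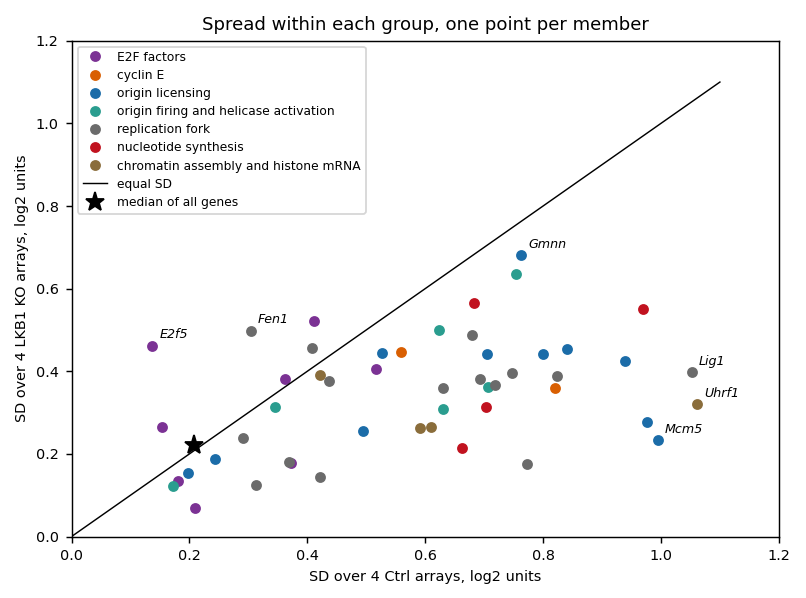
Each point is 1 member, placed by its SD over the 4 Ctrl arrays (x axis) and over the 4 LKB1 KO arrays (y axis), both in log2 units, with the star at the median of all genes and the line at equal SD. Points below the line, 44 of 50, varied more among Ctrl arrays.

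In an RNA sample of whole liver, fewer dividing cells and less transcript per dividing cell cannot be told apart. Stk11 itself checked the labels: it fell by 2.39 log2 units in LKB1 KO (SE 0.19, limma adjusted p = 0.000453) and was lower in all 4 LKB1 KO arrays than in any Ctrl array. The 8 hepatocyte markers were all well above the background gauge of 3.73 log2 units, the level under which 95% of olfactory and vomeronasal receptor genes lay, with mean levels of 11.41 to 11.56 in Ctrl and 11.24 to 11.34 in LKB1 KO and 1 marker past the threshold, Cyp2e1, which fell. Sinusoidal endothelial markers were lower in LKB1 KO (6.40 to 6.62, against 6.79 to 7.13), with 3 of 7 past the threshold, Clec4g, Kdr and Gpr182. Macrophage markers ran from 6.17 to 6.63 in LKB1 KO and from 6.51 to 7.38 in Ctrl with 1 of 7 past it, Csf1r, and stellate markers from 5.46 to 5.92 and from 6.03 to 6.29 with 0 of 7. All 7 measured lymphocyte markers and 3 of 6 neutrophil markers had a mean over the 8 arrays under the gauge, although some exceeded it in single arrays. Nkg7 (4.25), Cd79b (4.51) and Cd3e (3.79) did so in LKB1 KO 2 and Retnlg (4.86) in Ctrl 4. Cd3d in LKB1 KO 1 (3.75) and Cd79b in LKB1 KO 4 (3.74) were just above it. Alas2 fell among the 4 erythroid markers, and none of the 4 cholangiocyte markers passed. The part of these markers in the differences below was not tested. Array medians ran from 3.75 to 3.96 log2 units, highest in LKB1 KO 2, and replicates correlated at 0.973 to 0.988.

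Among the E2F factors, the atypical repressor E2f8 had the lowest difference of all 50 members. E2f8 (Entrez Gene 108961) had log2 values of 5.64, 6.55, 6.30 and 5.47 in Ctrl 1 to 4 and 5.02, 4.61, 5.37 and 5.52 in LKB1 KO 1 to 4. Only LKB1 KO 4 reached into the Ctrl range, just above Ctrl 4. Means of 5.99 ± 0.52 and 5.13 ± 0.41 (SD, n = 4) gave a difference of -0.86 (SE 0.27, 95% confidence interval -1.45 to -0.26), with a limma adjusted p of 0.168. With single arrays left out the E2f8 difference ran from -1.03 to -0.67. Its relative E2f7, which also lacks an RB-binding part, stood at -0.04 with an interval of -0.38 to 0.31.

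The activator E2f2 (Entrez Gene 242705) read 3.39, 3.81, 3.68 and 3.86 in Ctrl 1 to 4 and 3.99, 4.13, 4.12 and 4.03 in LKB1 KO 1 to 4. Every LKB1 KO array stood above every Ctrl array, one of 2 members with groups apart; over all genes 8.84% had groups apart, and 3.34% with LKB1 KO higher. The E2f2 difference was 0.38 (SE 0.13, 95% confidence interval 0.09 to 0.68, limma adjusted p = 0.218), at a level close to the background gauge, with 2 Ctrl arrays below it. The other activators, E2f1 (0.19) and E2f3 (0.09), overlapped between the groups. E2f4 and E2f5, which act as repressors with RB relatives, stood at -0.10 and 0.36, and the RB-independent repressor E2f6 at 0.30. Ctrl ranges in this family, 0.29 to 1.08 log2 units, lay below the median of 1.36 for the 50 members.

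Cyclin E, which with CDK2 completes the inactivation of RB and starts S phase, was highest in Ctrl 3. Ccne2 read 5.29, 5.57, 6.99 and 5.26 in Ctrl 1 to 4 and 5.54, 5.31, 6.14 and 5.49 in LKB1 KO 1 to 4. Ctrl 3 exceeded every other array of Ccne2, Ctrl 2 lay among the LKB1 KO values, and Ctrl 1 and Ctrl 4 just below them. The difference of Ccne2 was -0.16 (95% confidence interval -0.94 to 0.62, limma adjusted p = 0.899) and that of Ccne1 was -0.24 (-0.88 to 0.40, adjusted p = 0.787). Without Ctrl 3 they changed sign, to 0.25 and 0.0087.

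Origin licensing genes held no call, and most of them ranged more widely in Ctrl than in LKB1 KO. Of 11 members, 4 had higher and 7 lower means in LKB1 KO, 0 had an unadjusted p under 0.05, and the median difference was -0.15 log2 units. For all 6 subunits of the MCM2 to MCM7 ring, Ctrl 3 was the highest and Ctrl 4 the lowest of the 8 arrays, an order that 1.44% of all genes shared. Their Ctrl ranges ran from 1.14 to 2.18 log2 units, and each LKB1 KO value lay within them.

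The ring subunit gene Mcm5 (Entrez Gene 17218) had one of the 3 widest Ctrl ranges of the set. It read 4.93, 5.97, 6.34 and 4.16 in Ctrl 1 to 4 and 5.70, 5.29, 5.69 and 5.83 in LKB1 KO 1 to 4. The LKB1 KO arrays lay close together, 0.54 log2 units apart, inside a Ctrl range of 2.18. Its difference of 0.28 (SE 0.40, 95% confidence interval -0.60 to 1.16, limma adjusted p = 0.827) became -0.12 without Ctrl 4 and 0.61 without Ctrl 3.

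Mcm4 (Entrez Gene 17217), another ring subunit gene, had the third lowest difference of the set. Its values were 5.56, 6.42, 6.77 and 4.91 in Ctrl 1 to 4 and 5.39, 5.08, 5.76 and 6.13 in LKB1 KO 1 to 4. Ctrl 2 and Ctrl 3 were above all LKB1 KO arrays and Ctrl 4 below them. The difference was -0.32 (SE 0.37, 95% confidence interval -1.15 to 0.50, limma adjusted p = 0.778), and it was -0.66 without Ctrl 4 and -0.04 without Ctrl 3. For the other subunits the differences were -0.21 (Mcm2), -0.15 (Mcm3), -0.16 (Mcm6) and 0.16 (Mcm7).

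The loader genes of the ring were as close between groups. Orc1, the origin recognition subunit made for S phase entry, stood at -0.04 and Orc6 at -0.19, and the loading factors Cdc6 and Cdt1 at 0.05 and -0.16. Cdc6 ranged over 1.90 log2 units in Ctrl, down to 2.78 in Ctrl 4, and was under the background gauge in 5 arrays, so the size of its difference is uncertain. Orc1 was under the gauge in 4 arrays, and the size of its difference is uncertain too. Gmnn encodes geminin, which binds CDT1 and blocks a second round of loading; it stood at 0.27 with an interval of -0.61 to 1.15.

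Origin firing genes did not share one direction. Dbf4 (Entrez Gene 27214), the regulatory subunit that activates the CDC7 kinase, read 4.81, 5.77, 6.13 and 4.56 in Ctrl 1 to 4 and 6.35, 5.66, 6.82 and 7.12 in LKB1 KO 1 to 4. All LKB1 KO arrays but LKB1 KO 2 were above the whole Ctrl group. Dbf4 differed by 1.17 (SE 0.39, 95% confidence interval 0.31 to 2.02), a level 2.24-fold higher in LKB1 KO, with a limma adjusted p of 0.190. The gene of the kinase itself, Cdc7, stood at -0.07 and lay under the background gauge in 7 of 8 arrays.

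Gins2 (Entrez Gene 272551), a subunit of the GINS part of the helicase, read 5.55, 6.26, 6.72 and 5.38 in Ctrl 1 to 4 and 7.05, 6.17, 7.32 and 7.04 in LKB1 KO 1 to 4. As for Dbf4, LKB1 KO 2 alone lay in the Ctrl range. The difference was 0.92 (SE 0.32, 95% confidence interval 0.21 to 1.62, limma adjusted p = 0.214). A second GINS gene, Gins1, stood at 0.34 (-0.29 to 0.97) and the helicase cofactor gene Cdc45 at 0.12 (-0.57 to 0.82), each with all LKB1 KO arrays inside the Ctrl range. Whether Gins2 differed from Gins1 was not tested.

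Mcm10 (Entrez Gene 70024), which helps to activate the helicase but is no part of the ring, went the other way. Its values were 5.42, 5.23, 5.15 and 4.62 in Ctrl 1 to 4 and 4.47, 4.11, 4.87 and 4.54 in LKB1 KO 1 to 4. Only LKB1 KO 3 exceeded the lowest Ctrl array, Ctrl 4. The difference was -0.61 (SE 0.20, 95% confidence interval -1.06 to -0.16, limma adjusted p = 0.198), and it was -0.77 without Ctrl 4 (adjusted p = 0.0743). Mcm10 and E2f8 were the 2 members that stood lower at an unadjusted p under 0.05, where 7.63% of all genes did.

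**Figure D3:**
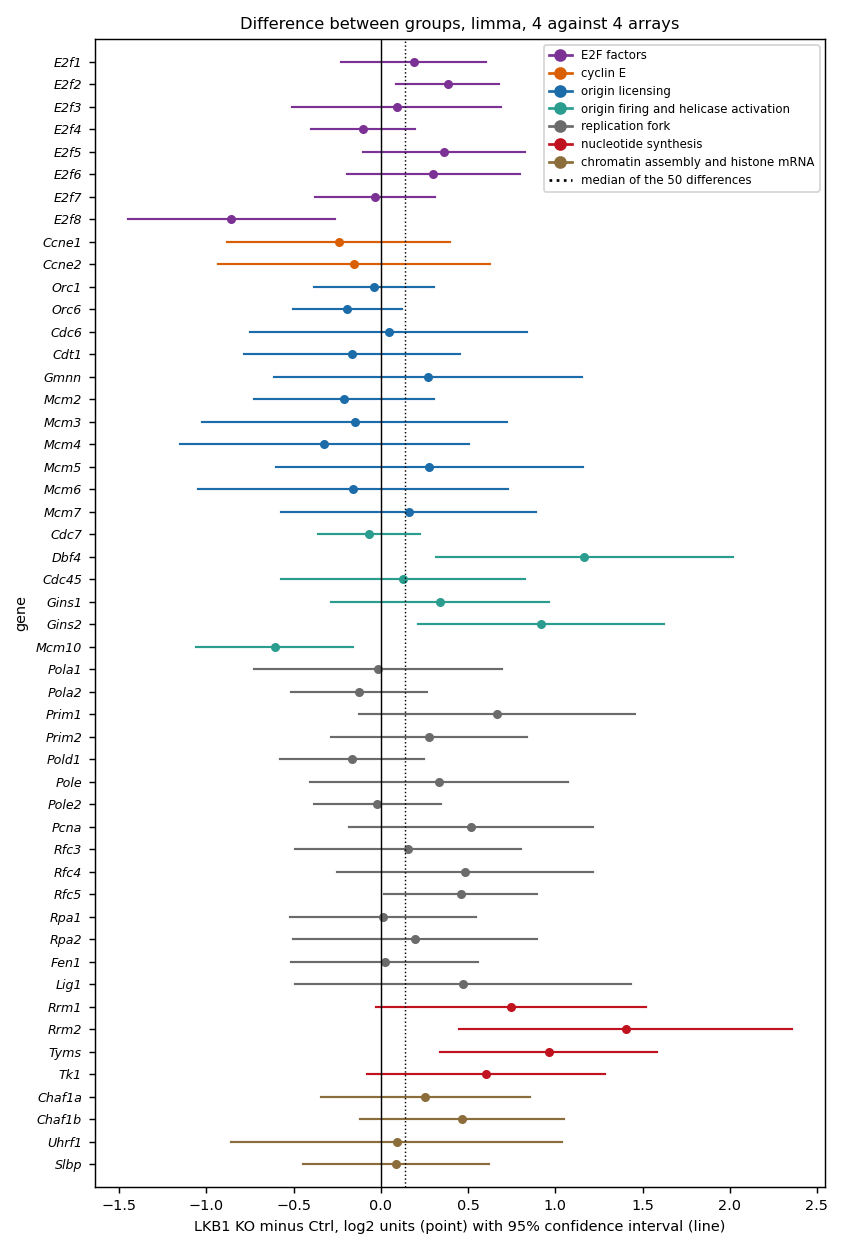
Each point is the LKB1 KO minus Ctrl difference of 1 member in log2 units and each line its 95% confidence interval from limma; colours mark the roles and the dotted line the median of the 50 differences, 0.14. Intervals exclude 0 for E2f2, E2f8, Dbf4, Gins2, Mcm10, Rfc5, Rrm2 and Tyms, before adjustment for the number of genes.

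At the replication fork 11 of 15 genes had higher means in LKB1 KO, 0.20 log2 units was the median of the 15 differences, and 1 gene had an unadjusted p under 0.05. That gene was Rfc5 (Entrez Gene 72151), a subunit of the clamp loader, which read 6.25, 6.92, 6.76 and 6.02 in Ctrl 1 to 4 and 6.74, 7.02, 6.97 and 7.05 in LKB1 KO 1 to 4. Ctrl 1 and Ctrl 4 lay below the LKB1 KO group and the other Ctrl arrays within it. The difference was 0.46 (SE 0.20, 95% confidence interval 0.02 to 0.90, limma adjusted p = 0.348), and it was 0.30 without Ctrl 4 and 0.28 without both Ctrl 4 and LKB1 KO 2. The loader genes Rfc3 and Rfc4 stood at 0.16 and 0.48.

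Prim1 (Entrez Gene 19075) encodes the catalytic subunit of primase, which lays down the RNA primers. It read 4.84, 5.74, 6.13 and 4.32 in Ctrl 1 to 4 and 5.82, 5.42, 6.29 and 6.15 in LKB1 KO 1 to 4. Both LKB1 KO 3 and LKB1 KO 4 exceeded the Ctrl arrays, and the other LKB1 KO values lay among them. The difference was 0.67 (SE 0.36, 95% confidence interval -0.13 to 1.46, limma adjusted p = 0.478), and 0.36 without Ctrl 4. Prim2, the large primase subunit gene, stood at 0.28, and the polymerase alpha genes Pola1 and Pola2, which extend the primers, at -0.02 and -0.13.

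Lig1 (Entrez Gene 16881), the ligase gene that seals Okazaki fragments, had a Ctrl range of 2.46 log2 units, among the 3 widest. Its values were 5.45, 5.95, 6.53 and 4.07 in Ctrl 1 to 4 and 5.88, 5.45, 6.22 and 6.34 in LKB1 KO 1 to 4. Ctrl 4 was the lowest array by a wide gap, and the LKB1 KO values lay between Ctrl 4 and Ctrl 3. The difference of 0.47 (SE 0.44, 95% confidence interval -0.49 to 1.44, limma adjusted p = 0.710) was -0.0045 without Ctrl 4 and 0.82 without Ctrl 3.

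Of the remaining fork genes, Pcna, which encodes the sliding clamp, stood at 0.52 (95% confidence interval -0.18 to 1.21) and its LKB1 KO arrays spanned 0.40 log2 units against 1.87 in Ctrl. Pcna was 0.18 without Ctrl 4 and 0.80 without Ctrl 3. The leading and lagging strand polymerase genes Pole, Pole2 and Pold1 stood at 0.33, -0.02 and -0.17, the single-strand binding genes Rpa1 and Rpa2 at 0.01 and 0.20, and the flap nuclease gene Fen1 at 0.02. Pole2 was under the background gauge in 7 of 8 arrays.

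Nucleotide synthesis was the role group with the highest median difference, 0.85 log2 units, and all 4 of its genes had higher means in LKB1 KO. In Tyms (Entrez Gene 22171), the thymidylate synthase gene, the values were 6.35, 6.69, 7.09 and 5.53 in Ctrl 1 to 4 and 7.32, 7.12, 7.63 and 7.43 in LKB1 KO 1 to 4. Every LKB1 KO array stood above every Ctrl array, though LKB1 KO 2 and Ctrl 3 lay close together. Means of 6.41 ± 0.66 and 7.38 ± 0.21 (SD, n = 4) gave a difference of 0.96 (SE 0.28, 95% confidence interval 0.34 to 1.58), 1.95-fold, with a limma adjusted p of 0.136. Left out singly, arrays moved it between 0.67 (without Ctrl 4) and 1.19 (without Ctrl 3, adjusted p = 0.0547).

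Rrm2 (Entrez Gene 20135), the S-phase subunit of ribonucleotide reductase, had the highest difference of all members. It read 5.28, 6.0, 7.18 and 5.01 in Ctrl 1 to 4 and 7.04, 6.61, 7.80 and 7.64 in LKB1 KO 1 to 4. Ctrl 3 lay among the LKB1 KO arrays and the other Ctrl arrays below them all. Means of 5.87 ± 0.97 and 7.27 ± 0.55 (SD, n = 4) gave a difference of 1.40 (SE 0.43, 95% confidence interval 0.45 to 2.36), a level 2.65-fold higher, with a limma adjusted p of 0.159. Without Ctrl 3 it was 1.84 and passed the threshold (adjusted p = 0.0227), the only call of a member under any of the 16 alternatives.

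Rrm1 (Entrez Gene 20133), the large subunit gene of the same enzyme, read 5.62, 6.36, 7.03 and 5.60 in Ctrl 1 to 4 and 7.04, 6.07, 7.17 and 7.32 in LKB1 KO 1 to 4. LKB1 KO 2 lay within the Ctrl range, and LKB1 KO 1 was level with Ctrl 3. The difference was 0.75 (SE 0.35, 95% confidence interval -0.03 to 1.52, limma adjusted p = 0.394). Tk1 (Entrez Gene 21877), the thymidine kinase gene of the salvage route, read 6.64, 6.71, 6.91 and 5.36 in Ctrl 1 to 4 and 6.84, 7.34, 7.20 and 6.66 in LKB1 KO 1 to 4. Apart from Ctrl 4 the groups lay close together, and the difference of 0.60 (SE 0.31, -0.08 to 1.28, adjusted p = 0.449) was 0.26 without Ctrl 4.

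**Figure D4:**
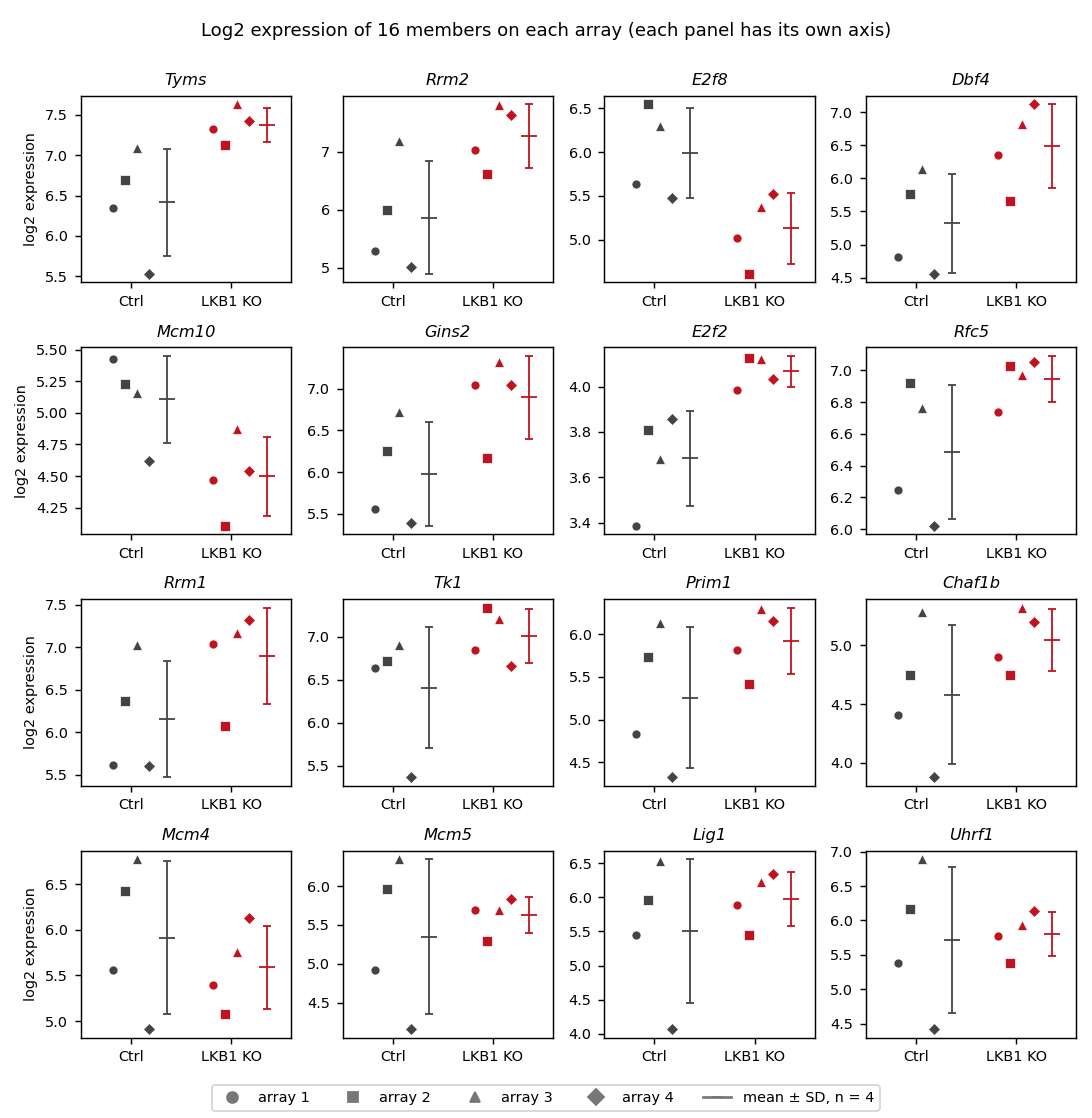
Log2 expression (y axis, its own scale in each panel) of 16 members on each array, Ctrl in grey and LKB1 KO in red, with a marker shape for each array number and the mean ± SD (n = 4) beside the points. Tyms and E2f2 have groups that do not overlap, while in Mcm5, Lig1 and Uhrf1 the 4 LKB1 KO arrays lie between Ctrl 4 and Ctrl 3.

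The genes of chromatin assembly had higher means in LKB1 KO in 4 of 4 cases and 0 with an unadjusted p under 0.05. Chaf1b (Entrez Gene 110749), a subunit of the complex that deposits new histones, read 4.41, 4.75, 5.28 and 3.88 in Ctrl 1 to 4 and 4.90, 4.75, 5.32 and 5.20 in LKB1 KO 1 to 4. Ctrl 1 and Ctrl 4 lay below the LKB1 KO group, Ctrl 2 was almost level with its lowest array, LKB1 KO 2, and Ctrl 3 lay near its top. The difference was 0.46 (SE 0.27, 95% confidence interval -0.12 to 1.05, limma adjusted p = 0.507), 0.23 without Ctrl 4 and 0.70 without Ctrl 3. The partner subunit gene Chaf1a stood at 0.25, and Slbp, whose protein binds the stem-loop of histone mRNA, at 0.09.

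Uhrf1 (Entrez Gene 18140), which brings the maintenance DNA methyltransferase to newly copied DNA, had the widest Ctrl range of the 50, 2.47 log2 units. It read 5.39, 6.17, 6.89 and 4.42 in Ctrl 1 to 4 and 5.78, 5.38, 5.93 and 6.14 in LKB1 KO 1 to 4. Ctrl 2 and Ctrl 3 lay above the LKB1 KO group, and Ctrl 4 well below it. The difference of 0.09 (SE 0.43, 95% confidence interval -0.86 to 1.04, limma adjusted p = 0.957) was -0.34 without Ctrl 4 and 0.48 without Ctrl 3.

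The direction of many members changed with 1 control array. Leaving out Ctrl 3 or Ctrl 4 turned the sign of 20 of the 50 differences in at least 1 of these fits. The 20 included differences close to 0, such as Rpa1 (0.01) and Pola1 (-0.02), and larger ones, such as Lig1 (0.47). The share of all genes with such a change of sign is not given here. The median of the members was 0.39 log2 units without Ctrl 3, with 41 higher, and -0.06 without Ctrl 4, with 21 higher. The members with an unadjusted p under 0.05 numbered 15 of 50 without Ctrl 3 and 7 without Ctrl 4, against 8 with all arrays. Over all 23185 genes the numbers in the same fits were 2993, 2983 and 3114, so the count over all genes did not rise without Ctrl 3. The rise was not particular to the members. Without Ctrl 3 the count went from 33 to 35 in the mitosis list and from 2 to 5 among 39 further replication factors. It went from 4 to 5 among 11 RB, DP and DREAM genes and from 3 to 4 among 15 G1/S genes. Median centring of the arrays gave a median of 0.10 and quantile normalization 0.17.

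Other genes of the same pathway likewise gave no calls. Of 39 further replication factors measured, 0 passed the threshold, with a median difference of 0.03. An unadjusted p under 0.05 was found for 2 of them (5.13%, against 13.4% of all genes). Pole3, a small polymerase epsilon subunit gene, stood at 0.51 (limma adjusted p = 0.227) and the nuclease and helicase gene Dna2 at -0.51 (0.322). Of the 11 genes of the RB family, the DP partners of E2F and the DREAM repressor complex, 0 passed. An unadjusted p under 0.05 was found for 4 (36.4%), 2 higher and 2 lower in LKB1 KO. Lin54, a DNA-binding DREAM subunit gene, stood at 0.56 (limma adjusted p = 0.197) and Rb1 at -0.36 (0.253). Of 15 kinases and regulators of the G1/S step, 0 passed and 3 (20.0%) had an unadjusted p under 0.05, all higher in LKB1 KO. The cyclin genes Ccnd1 and Ccna2 stood at 0.75 (limma adjusted p = 0.0909) and 1.29 (0.126). Ccnd1 passed without Ctrl 3 (0.0491), with quantile normalization (0.0497) and with array weights (0.0412).

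Mitosis genes are the nearest set in the cell cycle. Of 38 measured, 3 passed the threshold, all higher in LKB1 KO, as 0.487% of all genes did. They were Ccnb2, Mad2l1 and Plk1, which encode a mitotic cyclin, a spindle checkpoint protein and a mitotic kinase. At an unadjusted p under 0.05 there were 33 of 38 (86.8%, against 13.4% of all genes), all higher in LKB1 KO. A higher mean was found in 37, and the median difference was 1.22 log2 units, beside 0.14 for the replication members. Around gene means the mitosis medians were -1.04, -0.10, 0.10 and -1.30 in Ctrl 1 to 4 and 0.58, -0.19, 1.11 and 0.91 in LKB1 KO 1 to 4. The Ctrl arrays had the same order in both sets, from Ctrl 4 at the bottom through Ctrl 1 and Ctrl 2 to Ctrl 3, and LKB1 KO 2 was the lowest of the LKB1 KO arrays in both. Ctrl 3, the highest array for the replication members, was for the mitosis genes below LKB1 KO 1, LKB1 KO 3 and LKB1 KO 4. In 1 of 38 mitosis genes the LKB1 KO arrays all lay within the Ctrl range, against 23 of 50 replication members. The difference between these sets was not tested, since both were chosen with earlier results of these arrays known. The number of mitosis calls was 0 without Ctrl 1, Ctrl 4, LKB1 KO 1, LKB1 KO 3 or LKB1 KO 4, 1 without Ctrl 2, 7 without Ctrl 3 and 8 without LKB1 KO 2. In these fits 28 to 36 of the 38 had an unadjusted p under 0.05.

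**Figure D5:**
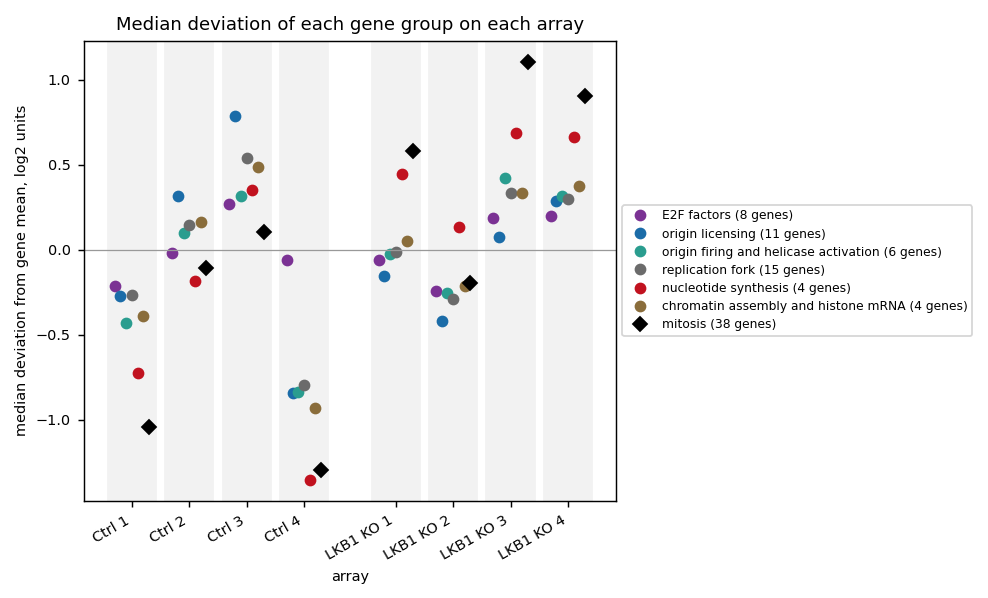
For each array (x axis), the median over the genes of a group of the log2 value minus the gene's mean over 8 arrays (y axis), with circles for the replication roles and diamonds for the 38 mitosis genes; cyclin E, with 2 genes, is left out. Origin licensing peaks in Ctrl 3 at 0.79, whereas the mitosis genes peak in LKB1 KO 3 at 1.11, and both have their lowest values in Ctrl 4.

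The roles placed the LKB1 KO arrays differently relative to Ctrl 3. For origin licensing, medians in LKB1 KO 1 to 4 were -0.15, -0.42, 0.08 and 0.29, all below the 0.79 of Ctrl 3. For the replication fork they were -0.02, -0.29, 0.33 and 0.30, also below Ctrl 3 at 0.54. For nucleotide synthesis they were 0.45, 0.13, 0.69 and 0.66, of which all but LKB1 KO 2 exceeded Ctrl 3 at 0.35. These are descriptions of 4 arrays a group, and no test of one role against another was made.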

How the data were processed

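Total RNA of 8 liver samples was extracted, amplified to cDNA and labelled with biotin for arrays, per the labels' protocols. The deposited table holds log2 values, 1 per gene and array, normalized by the authors; RMA (background subtraction, normalization between arrays and summary of probes) and Partek are named without versions, per the submitters' processing notes. RMA can compress differences of dim genes. Neither the array design nor the build is stated there, and no coordinates or sequences are printed.

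Rows were named from the platform annotation: 23185 of 25206 had 1 symbol, 0 several and 2021 none. Groups came from sample titles. limma 3.58.1 in R 4.3.3 (lmFit, eBayes, group as the single term) was fitted to all named rows, with Benjamini-Hochberg adjustment over them and a threshold of 0.05. The labels do not say that arrays come from separate animals, so p-values reflect the spread between arrays, which may in part be technical, and their number limits the precision. The fit was tested on simulated data. The members, the lists and the rule for genes given by array were chosen with earlier results of these data known. That rule took the 12 members with the smallest p, the 3 highest and 3 lowest differences and the 3 widest Ctrl ranges; of each other list it took the 2 genes with the smallest p and up to 5 past the threshold. Ccne2 was added after its values were seen. Equal replicate numbers were not treated as pairs in the main fit. Same-numbered arrays had deviations from group means that correlated over 0.1 in 1 of 4 pairs (0.183 for Ctrl 3 and LKB1 KO 3). Such correlations cannot show whether the design paired arrays. Alternatives were the replicate block, each array left out, quantile normalization, median centring, a trended and robust prior, removal of the dimmest of 3 bins of genes by level, array weights, all rows, and a fit without LKB1 KO 2 and Ctrl 4.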

Additional observations from a re-analysis of the deposited data

Results flagged for a closer look

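A total of 3 values of members lay far from the other arrays of their group, by Dixon's test for the largest gap in 4 values. Cdc6 read 4.41 in LKB1 KO 4, where the other LKB1 KO arrays lay between 3.47 and 3.57. Rpa2 read 5.49 in LKB1 KO 2, against 6.18 to 6.30 in the others. Chaf1a read 4.51 in LKB1 KO 2, against 5.01 to 5.09. With 100 sets of 4 values tested, chance flags about 1 in 20.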

How the results depend on the processing

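The count of members past the threshold stayed at 0 under every alternative but 1; without Ctrl 3 it was 1 (Rrm2), so with single arrays left out it ran from 0 to 1. The median difference of the members, 0.14, ran from -0.06 to 0.39 with single arrays left out. Equal replicate numbers were not treated as pairs in the main fit. With the replicate block 0 members, 1 mitosis gene and 268 of all genes passed, against 0, 3 and 458 in the main fit. With array weights 721 of all genes, 15 mitosis genes and 1 gene of the G1/S list (Ccnd1) passed, and with quantile normalization 7 mitosis genes and 1 of the G1/S list. Mitosis calls numbered 1 with median centring and 6 without the dimmest of 3 bins by level. Single arrays left out gave 213 to 491 calls over all genes, 0 to 8 in the mitosis list and 0 to 1 in the G1/S list. The other replication factors and the RB, DP and DREAM list kept 0 calls throughout these settings. Signs turned in Mcm5 (-0.12 without Ctrl 4, 0.61 without Ctrl 3, and -0.0056 without both LKB1 KO 2 and Ctrl 4), in Lig1 (-0.0045 without Ctrl 4, up to 0.82) and in Uhrf1 (-0.34 without Ctrl 4, up to 0.48, and -0.20 without both LKB1 KO 2 and Ctrl 4). Over all alternatives 27 of 50 members kept their sign. Fewer arrays enter the fits that leave arrays out; for the other settings the cause was not tested. Cdc7 and Pole2, near background, limit what their values can show.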
